A study of Homo sapiens with 32 samples.

Results

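The genes described here are 54 protein-coding genes of neurons, of 19970 protein-coding genes measured. They are a list of gene names: 8 genes of the neuronal cytoskeleton and growth cone, 8 of synaptic vesicles and release, 6 for neuronal RNA-binding proteins and the transcription factor CAMTA1, 11 for neurexins and their partners across the synapse, 8 contactins and contactin-associated proteins, 4 IgLON cell adhesion genes, 4 guidance and neurotrophin receptors, and 5 of the CSMD, LINGO and DLGAP families. The measurement is trimethylation of lysine 27 of histone H3 (H3K27me3) by ChIPmentation, chromatin immunoprecipitation with library preparation by a transposase on the beads. The cells were MDA-MB-231, a line long established from a triple-negative breast cancer, with mesenchymal features and no neuronal origin.

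The 4 groups of 4 H3K27me3 libraries were controls (whether they had a vehicle is not stated), cells with an EZH2 inhibitor (EPZ, written EP7 in some sample names), cells with an inhibitor of the MAP kinase p38 (P38i), and cells with both (combo), each for 24 h. The labels do not state whether the 4 libraries of a group came from separate cultures, so p-values measure the spread between libraries, which may be technical. The 16 matching IgG libraries were not used here. Each file lists only the regions called as enriched (islands), so a value below is the percent of a gene's span plus 2.5 kb on each side that lay in islands in 1 library, called coverage. Coverage says where the mark was called, not how much of it there was, and read depth is unknown.

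H3K27me3 is laid down by Polycomb repressive complex PRC2, whose catalytic subunit is EZH2, and it marks genes that are held silent. It spreads from nucleation sites, often CpG islands, into broad domains that can span whole genes. Neuronal genes are silent in most epithelial cells; some are kept so by Polycomb and some by other means, such as the repressor REST or DNA methylation, which leave no trace in these files. Synaptic adhesion genes encode the proteins that hold the membranes of a synapse together, and many are among the longest genes of the genome.

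Islands in these libraries numbered from 53290 to 85194 and covered 474 to 674 Mb, and the median island was 3.4 to 7.4 kb wide. Libraries with the EZH2 inhibitor covered 546 ± 50.7 Mb (SD, n = 8) and those without it 605 ± 67.1 Mb (n = 8), ranges that overlap. Control replicate 4 (484 Mb) and P38i replicate 4 (533 Mb) covered least in their groups. The members followed this: 22.9% of their summed windows was covered in control replicate 4, against 27.7% to 32.5% in the other controls. The called differences of members are therefore also given from a fit with covered length as a covariate. Covered length was measured after treatment and averaged lower with the inhibitor, so this fit can also take up part of a difference that goes with the inhibitor. Its differences are relative to covered length, and a higher value there need not be a gain in coverage. None of 16 housekeeping genes had an island in any library. The same held for 10 genes typical of mesenchymal-like breast cancer lines (VIM, CD44, CAV1 and others). Of 11 luminal epithelial genes 2 were at least 50% covered in control and 7 had no island in any library (63.6%, against 68.0% of all genes). These lists show only which of their genes held islands, and they do not establish the cell type.

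The neuronal genes were marked more often than genes in general, and much of that went with their length. In control, 13 of 54 (24.1%) had a mean coverage of at least 50%, against 10.9% of all genes, and 10 of 54 (18.5%) had no island in any of the 16 libraries, against 68.0% of all genes. Their median length was 563 kb against 24.2 kb. Among genes over 500 kb, 6 of 28 members (21.4%) were at least 50% covered in control, against 26.8% of the 314 genes of that length, and the median coverage was 22.8% against 16.7%. Among genes of 50 to 200 kb it was 3 of 9 members (33.3%) against 10.9% of all, and under 50 kb 2 of 11 (18.2%) against 9.85%. These shares are descriptions without a test. Of the 54, 37 averaged between 5 and 95% and could be tested, 17 lay below 5%, and none lay above 95%.

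**Figure D1:**
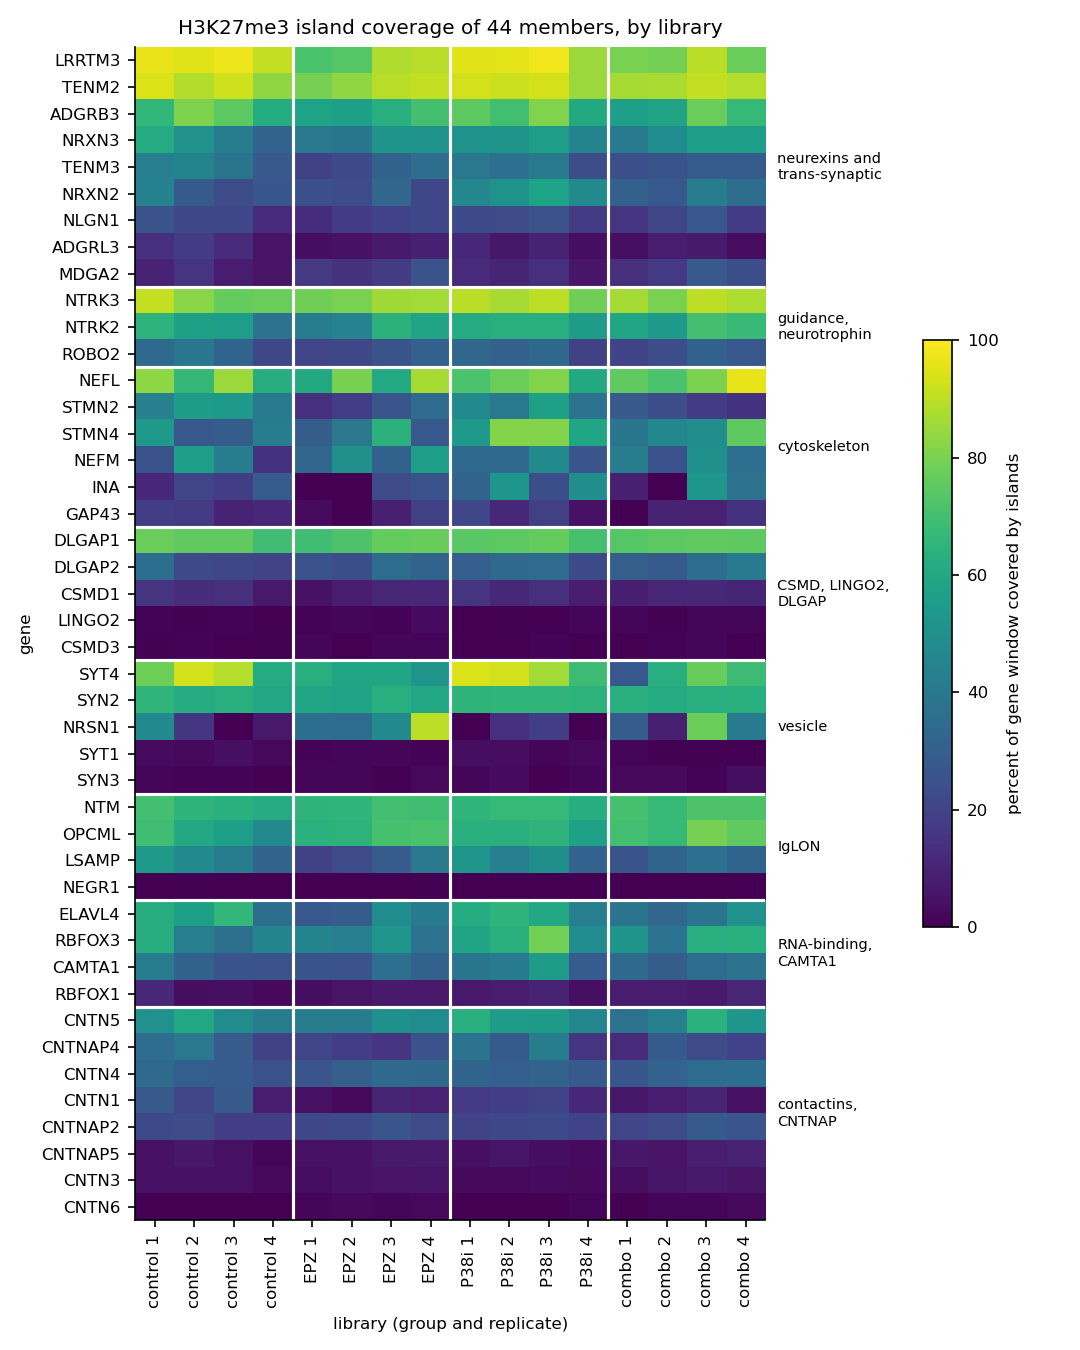
Coverage of the 44 members with an island in any library (rows, grouped by role) in each of 16 libraries (columns, 4 per group); colour gives the percent of the gene window covered by islands, from 0 to 100. LRRTM3, TENM2 and NTRK3 are bright in every library, the genes at the bottom of several groups are dark in every library, and the STMN2 row is darker in all 8 EPZ and combo libraries than in the other 8.

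The neurexins and their partners held the most widely covered genes. TENM2, a teneurin that binds latrophilins across the synapse, lies at chr5:166979029-168264157 (GRCh38.p14, as for all positions here) and was covered 89.9% ± 5.21 in control (SD, n = 4), 85.7% ± 5.24 in EPZ, 90.9% ± 4.05 in P38i and 88.5% ± 1.91 in combo. Over 1285 kb, 50.4% of its window lay in islands in all 16 libraries. LRRTM3, a postsynaptic leucine-rich repeat protein that binds neurexins, was covered 95% ± 2.97 in control, and its window lies within CTNNA3, so its islands are also islands of that gene. ADGRB3, an adhesion receptor of the BAI family, was at 71.0% ± 8.37 in control. The neurexins themselves were lower, with NRXN3 at 46.4% ± 12.8 and NRXN2 at 30.4% ± 9.26, and the postsynaptic neurexin ligand NLGN1 was at 20.4% ± 5.60. LRRTM1 and LRRTM4, relatives of LRRTM3, had no island in any library, so members of 1 family stood at opposite ends.

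The same split ran through the other adhesion families. Of the contactins, cell surface proteins of the immunoglobulin superfamily, CNTN5 was covered 50.2% ± 7.13 in control, CNTN4 29.5% ± 4.00, CNTN1 21.1% ± 9.72, CNTN3 4.12% ± 1.31, and CNTN6 was at 0 in all 4 control libraries. Of the IgLON genes, whose products are anchored to the neuronal surface, NTM was at 65.1% ± 3.79, OPCML at 58.2% ± 9.36 and LSAMP at 44% ± 9.47 in control, while NEGR1 was at 0.202% ± 0.209. NTRK3 and NTRK2, receptors for neurotrophins, were at 81.6% ± 6.75 and 53.8% ± 11.3. ROBO2, a receptor for the guidance cue SLIT, was at 31.8% ± 7.5, and the netrin receptor gene DCC had no island in any library over a span of 1196 kb. DLGAP1, a scaffold protein of the postsynaptic density, was at 74.4% ± 3.42 and its relative DLGAP2 at 25% ± 7.49. CSMD3 (0.659% ± 0.211) and LINGO2 (0.699% ± 0.404) were all but free of islands although both are among the longest members (1214 and 1276 kb), and CSMD1 was at 12.1% ± 3.74.

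Several widely used markers of neurons had no island at all. SNAP25, a SNARE protein of vesicle fusion, SYP, a membrane protein of synaptic vesicles, SYN1, a synapsin, DCX, a microtubule-binding protein of migrating neurons, NEFH, the heavy neurofilament subunit, and the RNA-binding protein genes ELAVL2 and ELAVL3 were among the 10 members free of islands, with DCC, LRRTM1 and LRRTM4. The calcium sensor SYT1 was at 2.82% ± 0.916 in control and SYN3 at 0.954% ± 0.780. Their relatives differed: SYT4 was at 80.5% ± 14.1, SYN2 at 62.5% ± 2.31 and ELAVL4 at 55.4% ± 13.4. In the neurofilament family, NEFL was at 74.3% ± 11.4 and NEFM at 34.4% ± 18. SYN1, SYP and DCX lie on the X chromosome.

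How an island domain sat within a gene differed from member to member, and some parts of a gene were free of islands in every library. The position of a border was not measured. Each window was divided into 5 equal parts, numbered by rising coordinate. In DLGAP1, which runs down the coordinates, part 1 (its 3' end) was at 0 in all 16 libraries, while parts 2 to 5 averaged 88.9% to 95.4% without the EZH2 inhibitor and 88.6% to 95.6% with it. In all, 54.9% of the DLGAP1 window was covered in every library. SYN2, whose window also holds TIMP4, had part 5 at 0 in all 16 libraries and part 2 at 96.9% or more in each. Part 4 of SYN2 varied, from 24.7% to 44.4% without the inhibitor and from 23.2% to 36.7% with it.

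In a pair of long adhesion genes coverage lay mostly toward the 3' end. CNTNAP2, which helps to cluster potassium channels along axons and is 2304 kb long, was covered 84.0% in part 5 without the inhibitor (lowest 77.4%, highest 89.8%, n = 8), while its parts 1 to 4 averaged 1.81% to 10.7%. CNTN4 coverage ran from 0 in part 1 to 51.9% in part 4 and 87.0% in part 5 on the same side. Both genes run up the coordinates, so part 5 is their 3' end. ROBO2 was the reverse case of a gap, with part 2 averaging 0.114% between parts at 24.9% and 61.6%. NTM had such a gap in part 4 (1.63%), between parts at 56.2% and 84.4%.

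**Figure D2:**
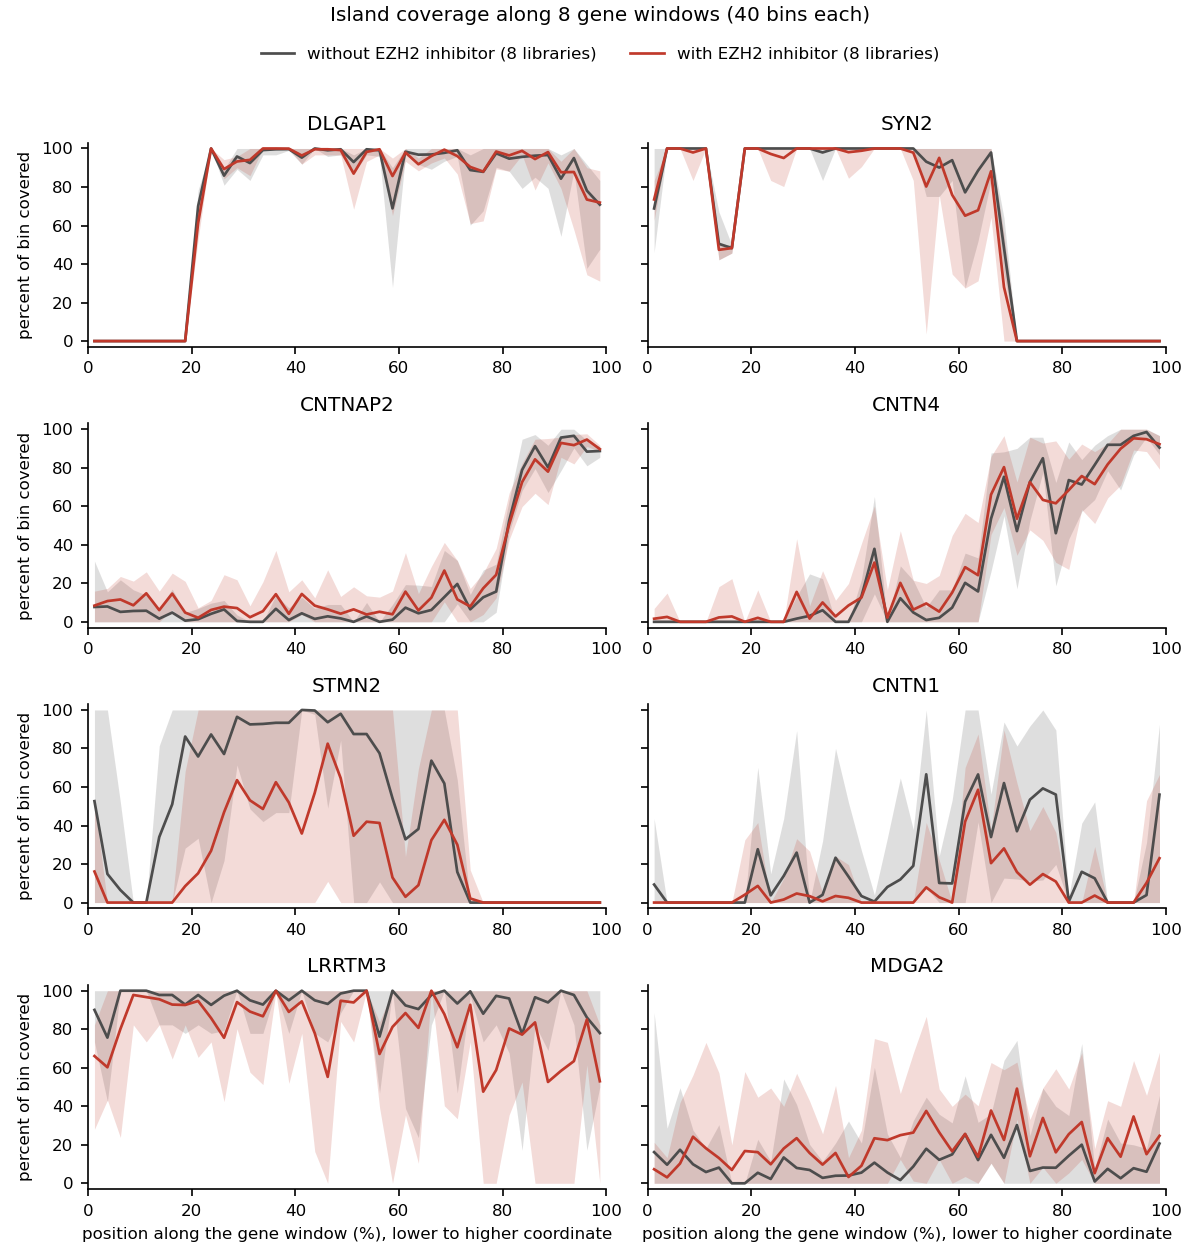
Percent of each of 40 equal bins covered by islands along the windows of 8 members, from the lower to the higher coordinate; lines are means and bands run from the lowest to the highest of 8 libraries without (grey) and 8 with (red) the EZH2 inhibitor. DLGAP1 and SYN2 each have an end without islands in all libraries, and CNTNAP2 and CNTN4 are covered toward the right. The red line lies under the grey over most of STMN2, CNTN1 and LRRTM3, and over it along most of MDGA2.

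Well covered gene starts held few CpG, the dinucleotide that clusters in CpG islands, with exceptions. The RefSeq promoter table (GRCh38.p14) matched 40 of the 54 members, and 14 had no entry. For the 40, coverage was taken in 5 kb centred on the start and CpG was counted in 300 bases, 250 before and 50 after it. The 12 starts covered by at least 50% over 16 libraries had a median of 9 CpG, the 12 with no island 15, and the 16 in between 24. For all genes in the table, the 1485 starts covered by at least 50% had a median of 4 and the 12070 without an island 24. Of the 12 well covered member starts, 3 (25%) held 20 or more CpG, and of all such starts 17.8% did. These are descriptions without a test.

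The 250 bases before the start are given for 6 members to show this contrast, on the gene's strand from 5' to 3' and with each CG in capitals. NTM (chr11:131370365-131370614, + strand) and SYT4 (chr18:43277491-43277740, - strand) are covered starts with few CpG, 5 and 8 in the bases shown. CNTN5 (chr11:99020699-99020948, + strand) is a covered start with many, 26. CNTN4 (chr3:2098616-2098865, + strand) and CAMTA1 (chr1:6785204-6785453, + strand) are the contrary case, genes with wide islands whose starts, with 40 and 22 CpG, were almost or wholly free of them. NRSN1 (chr6:24125965-24126214, + strand), with 22, is the member whose coverage was higher by most with the EZH2 inhibitor.
NTM: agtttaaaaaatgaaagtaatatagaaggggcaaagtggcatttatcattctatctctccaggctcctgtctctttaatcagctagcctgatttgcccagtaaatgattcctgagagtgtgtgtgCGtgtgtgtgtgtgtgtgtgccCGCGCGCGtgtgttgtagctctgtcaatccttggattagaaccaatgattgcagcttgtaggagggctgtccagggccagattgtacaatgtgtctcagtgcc
SYT4: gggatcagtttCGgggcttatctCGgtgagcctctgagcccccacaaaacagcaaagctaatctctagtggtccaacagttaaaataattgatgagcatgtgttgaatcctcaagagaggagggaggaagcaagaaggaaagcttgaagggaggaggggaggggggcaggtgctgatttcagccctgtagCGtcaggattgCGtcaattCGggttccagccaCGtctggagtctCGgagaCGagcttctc
CNTN5: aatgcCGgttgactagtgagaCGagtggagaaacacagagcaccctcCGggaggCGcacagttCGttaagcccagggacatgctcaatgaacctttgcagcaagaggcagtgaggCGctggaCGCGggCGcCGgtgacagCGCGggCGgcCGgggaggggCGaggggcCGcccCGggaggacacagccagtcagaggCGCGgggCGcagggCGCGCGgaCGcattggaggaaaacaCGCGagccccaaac
CNTN4: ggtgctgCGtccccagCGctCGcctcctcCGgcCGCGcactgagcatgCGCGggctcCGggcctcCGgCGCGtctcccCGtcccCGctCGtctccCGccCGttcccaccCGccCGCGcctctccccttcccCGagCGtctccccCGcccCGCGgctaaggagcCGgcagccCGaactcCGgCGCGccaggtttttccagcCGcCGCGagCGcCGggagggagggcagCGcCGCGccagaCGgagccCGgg
CAMTA1: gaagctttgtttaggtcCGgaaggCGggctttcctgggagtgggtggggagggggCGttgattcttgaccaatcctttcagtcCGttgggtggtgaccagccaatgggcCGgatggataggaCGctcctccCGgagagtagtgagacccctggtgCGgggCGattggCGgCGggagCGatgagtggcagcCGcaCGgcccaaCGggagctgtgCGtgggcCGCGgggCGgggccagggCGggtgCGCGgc
NRSN1: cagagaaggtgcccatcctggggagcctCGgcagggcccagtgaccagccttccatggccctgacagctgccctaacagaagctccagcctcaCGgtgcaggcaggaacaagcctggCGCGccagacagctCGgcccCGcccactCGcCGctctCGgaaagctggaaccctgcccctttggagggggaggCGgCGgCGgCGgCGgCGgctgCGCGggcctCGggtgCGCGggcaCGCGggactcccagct

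Start coverage of NTM was 100% in all 16 libraries, and that of CNTN5 averaged 96.0% (lowest 84.0%, highest 100%). The SYT4 start averaged 92.0%, with a lowest library of 43.8%. The CNTN4 start averaged 1.79%, with an island in 1 of 16 libraries, and the CAMTA1 start was at 0 in all 16, although CAMTA1 as a whole averaged 34.1%. The start of ADGRB3 held 53 CpG, the most among members, and averaged 39.2%, with an island in all 16 libraries.

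**Figure D3:**
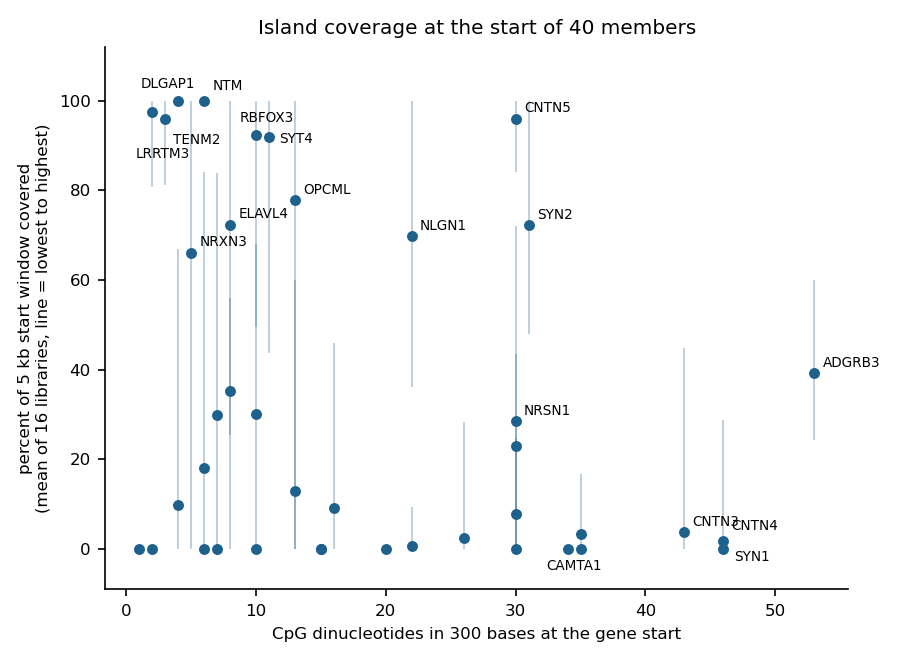
Coverage of the 5 kb around the start (vertical, mean of 16 libraries, with a line from the lowest to the highest) against the number of CpG in 300 bases at the start (horizontal) for 40 members. Most starts above 50% have 13 CpG or fewer, with NLGN1, CNTN5 and SYN2 as the exceptions at 22, 30 and 31.

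The first comparison asked how coverage differed between the 8 libraries with the EZH2 inhibitor (EPZ and combo) and the 8 without it (control and P38i), called the main effect. It was fitted with limma over all 4104 genes with a mean of 5 to 95%, and p-values were adjusted by the Benjamini-Hochberg method over those genes. Coverage of 6 of the 37 tested members fell and of 2 rose past an adjusted p of 0.05 (16.5% of all tested genes did so in either direction, 15.6% lower and 0.877% higher). STMN2, SYT4, ELAVL4, LSAMP, LRRTM3 and CNTN1 fell, and MDGA2 and NRSN1 rose. The median difference over the 37 was -3.31 percentage points, against -4.84 over all tested genes. With covered length as a covariate the same fit called 3 lower and 5 higher (6.34% of all genes lower and 3.09% higher), and the median of the members was 0.685 points, against -1.21 over all genes.

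**Figure D4:**
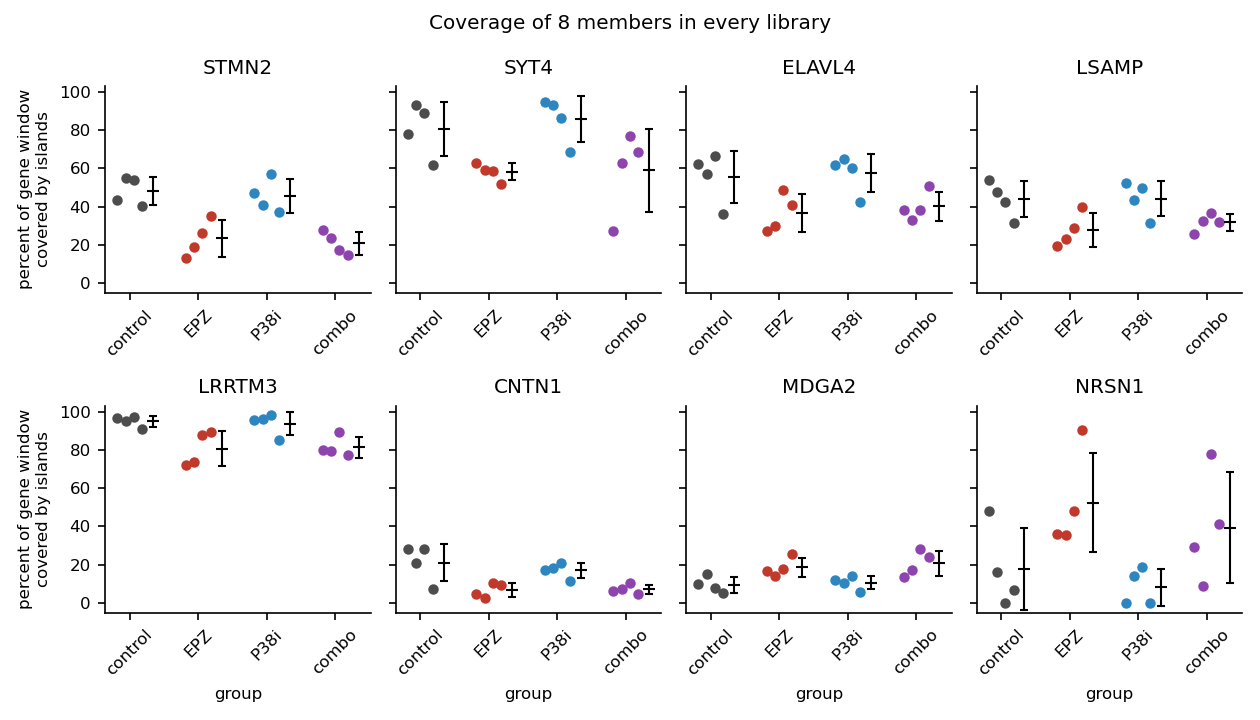
Percent of the gene window covered by islands in each of 16 libraries (dots, 4 per group) for 8 members, with the mean and SD of each group in black. STMN2 is the member in which all 8 EPZ and combo libraries lie below all 8 control and P38i libraries.

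STMN2 encodes stathmin-2, a regulator of microtubules in growing axons, and lies at chr8:79611117-79666158. Its coverage was 43.6%, 54.9%, 53.9% and 40.3% in control replicates 1 to 4 and 47.3%, 40.6%, 56.9% and 37.3% in P38i. It was 13.3%, 18.7%, 26.3% and 35.0% in EPZ and 28.0%, 23.6%, 17.3% and 14.6% in combo. The 2 sides did not overlap, which held for 1 of 37 tested members and for 1.58% of all tested genes. The main effect was -24.8 ± 4.13 points (SE, limma adjusted p = 0.00262), and it was -21.0 ± 4.14 with the covariate (adjusted p = 0.0104). The call held in all 25 alternatives that could be run on this gene, with adjusted p from 0.0015 to 0.0208. The widest island over the gene was 18.2 ± 6.49 kb without the inhibitor and 6.58 ± 3.40 kb with it (SD, n = 8). By part, coverage was 30.7% without and 3.08% with the inhibitor in part 1, 88.6% and 46.1% in part 2, and 87.3% and 46.4% in part 3, while part 5 was at 0 in all 16 libraries.

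CNTN1, a contactin found where myelin meets the axon beside nodes of Ranvier, fell most in 1 stretch. It lies at chr12:40692439-41072415 and was covered 28.0%, 20.7%, 28.1% and 7.43% in control, 17.1%, 18.4%, 20.7% and 11.7% in P38i, 4.52%, 2.70%, 10.2% and 9.25% in EPZ and 6.29%, 7.48%, 10.2% and 4.57% in combo. The sides overlapped only through control replicate 4. The main effect was -12.1 ± 2.86 points (limma adjusted p = 0.0125), and part 4 of the gene went from 52.6% without to 25% with the inhibitor. The number of islands over the gene was 13.0 ± 3.96 without and 6.12 ± 1.96 with the inhibitor (SD, n = 8). The call held without any 1 of the 16 libraries and with the covariate (adjusted p = 0.0408), and was lost with island lists trimmed to equal length (0.0726).

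LRRTM3 was on average covered less, and in more pieces, with the inhibitor. Its coverage was 96.8%, 95%, 97.3% and 90.8% in control, 95.7%, 96.0%, 98.0% and 84.9% in P38i, 71.9%, 73.5%, 87.9% and 89.4% in EPZ and 79.8%, 79.1%, 89.5% and 77.3% in combo. P38i replicate 4 lay below the highest libraries with the inhibitor, and the other 7 libraries without it lay above all of them. The main effect was -13.3 ± 3.12 points (limma adjusted p = 0.0124, and 0.0381 with the covariate). Islands over the gene numbered 9.12 ± 3.52 without and 16.0 ± 3.78 with the inhibitor (SD, n = 8). They ran from 5 to 14 without and from 10 to 23 with it, ranges that overlap. The call held without any 1 library, and was lost when the narrowest library of each group was left out (adjusted p = 0.0705).

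SYT4 encodes a synaptotagmin that does not trigger fusion as SYT1 does, and lies at chr18:43267892-43277490. It was covered 78.1%, 93.2%, 89.0% and 61.6% in control, 94.5%, 93.1%, 86.2% and 68.4% in P38i, 63.0%, 58.9%, 58.8% and 52.0% in EPZ and 27.3%, 62.9%, 76.6% and 68.5% in combo. The sides overlapped: replicate 4 of control and P38i lay low without the inhibitor, and EPZ replicate 1 and combo replicates 2 to 4 reached above the lowest of that side. The main effect was -24.5 ± 6.84 points (limma adjusted p = 0.0265), and it was lost with the covariate (0.142), with lists of equal length (0.316), without a flank (0.0661) and with a flank of 5 kb (0.0585). It was also lost without any 1 of control replicates 2 and 3 and P38i replicates 1 to 3 (adjusted p from 0.0516 to 0.0583).

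ELAVL4, the neuronal RNA-binding protein HuD, and LSAMP, the limbic system-associated membrane protein, fell with less certain calls. ELAVL4 was covered 62.4%, 56.8%, 66.3% and 36.1% in control, 61.9%, 64.9%, 60.4% and 42.6% in P38i, 27.4%, 29.6%, 48.8% and 40.9% in EPZ and 38.3%, 33.1%, 38.4% and 50.7% in combo, for a main effect of -18 ± 5.19 points (limma adjusted p = 0.0301). In ELAVL4 the gap was widest in part 3, at 71.0% without and 29.3% with the inhibitor. LSAMP was covered 53.9%, 47.8%, 42.5% and 31.6% in control, 52.2%, 43.4%, 49.8% and 31.4% in P38i, 19.3%, 23.1%, 28.7% and 40% in EPZ and 25.8%, 32.2%, 36.7% and 32.1% in combo, for a main effect of -14.3 ± 4.28 points (limma adjusted p = 0.0351). In both genes the sides overlapped, replicate 4 of control and of P38i being the low libraries without the inhibitor. With the covariate neither passed (ELAVL4 0.119, LSAMP 0.0733), nor with lists of equal length (0.113 and 0.765). The ELAVL4 call was lost without any 1 of 10 libraries (control 1 to 3, EPZ 1 and 2, P38i 1 to 3, combo 1 and 2; adjusted p from 0.0566 to 0.0651), and that of LSAMP without any 1 of 12 (control, EPZ and P38i 1 to 3, combo 1, 2 and 4; from 0.0514 to 0.0744).

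MDGA2 moved the other way. It encodes a membrane protein that binds neuroligins and so competes with neurexins, and lies at chr14:46839623-47675605. Coverage was low throughout, at 10.1%, 15.0%, 7.82% and 5.11% in control and 11.9%, 10.3%, 13.8% and 5.95% in P38i, and it was 16.6%, 14.3%, 17.5% and 25.8% in EPZ and 13.8%, 17.2%, 27.9% and 24.0% in combo. Control replicate 2 and, narrowly, P38i replicate 3 were the libraries without the inhibitor above the lowest with it. The main effect was 9.64 ± 2.59 points (limma adjusted p = 0.0221; with the covariate 0.00385), and islands over the gene numbered 18.1 ± 3.80 without and 36.2 ± 8.15 with the inhibitor (SD, n = 8). Each of the 5 parts had a higher mean with the inhibitor. The call held without any 1 library, and was lost when the narrowest library of each group was left out (0.0621).

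NRSN1, which encodes neurensin-1, a vesicle protein of neurites, had the largest difference of the 8 and the call lost most often. It was covered 48.0%, 16.0%, 0% and 6.84% in control, 0%, 14.0%, 18.6% and 0% in P38i, 36.2%, 35.3%, 48.0% and 90.1% in EPZ and 29.2%, 8.69%, 77.6% and 41.5% in combo. The sides overlapped through control replicate 1 and combo replicate 2. The main effect was 32.9 ± 10.5 points (limma adjusted p = 0.0451; with the covariate 0.00841). It held without control replicate 1 and without combo replicate 2, and was lost without any 1 of the other 14 libraries (adjusted p from 0.0507 to 0.0863). It was also lost with lists of equal length (limma adjusted p = 0.145), no filter (0.0690), no flank (0.101), islands of 2 kb or more (0.0601), the replicate block (0.0667) and the narrowest libraries left out (0.119).

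**Figure D5:**
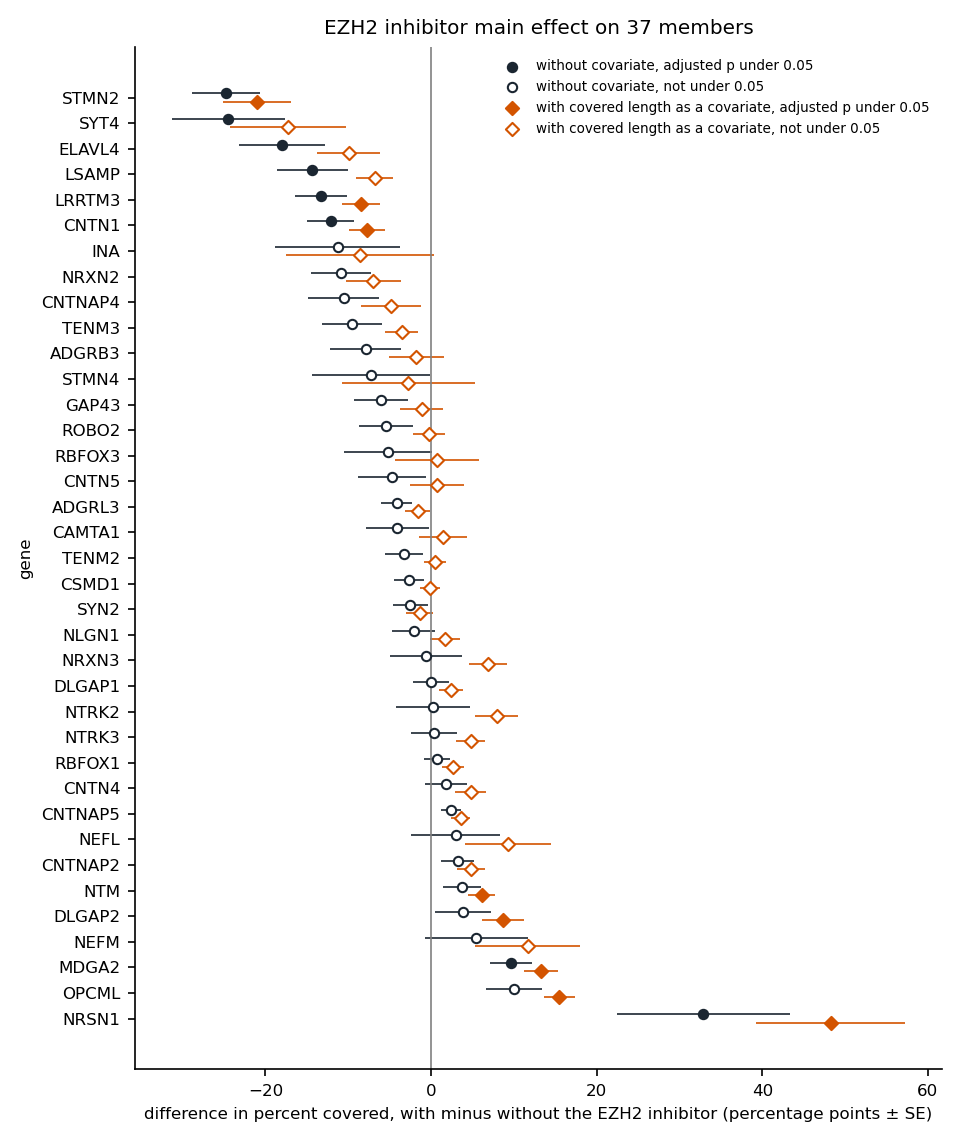
EZH2 inhibitor main effect on coverage of the 37 tested members in percentage points, with its SE, without (black circles) and with (orange diamonds) covered length as a covariate; filled marks have an adjusted p under 0.05. The 24 members with a lower mean without the covariate become 17 with it, and STMN2, LRRTM3 and CNTN1 are filled on the left in both fits.

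Of the 29 tested members that were not called, OPCML (10.0 ± 3.39 points, limma adjusted p = 0.0565) and NRXN2 (-10.9 ± 3.66, adjusted p = 0.056) came nearest. OPCML, an IgLON gene, was covered 69.5%, 60.3%, 56.3% and 46.9% in control, 63.5%, 63.3%, 65.2% and 57.4% in P38i, 63.7%, 64.7%, 70.9% and 71.4% in EPZ and 69.9%, 67.1%, 79.5% and 75.4% in combo. Its part 5, which holds the 5' end, was at 24.6% without and 46.6% with the inhibitor. With the covariate OPCML was called higher relative to covered length (15.5 ± 1.85, limma adjusted p = 0.00191), together with the IgLON gene NTM (6.11 ± 1.59, 0.0313) and DLGAP2 (8.67 ± 2.53, 0.049). Without it NTM differed by 3.75 ± 2.32 points (limma adjusted p = 0.280) and DLGAP2 by 3.87 ± 3.40 (0.453). LSAMP, of the same family, had a negative difference in both fits. The 5 members most widely covered in control were picked by values that are part of the side without the inhibitor. Their calls therefore do not tell whether wide coverage goes with a fall. Of these 5, LRRTM3 and SYT4 are among the 8 called. The others were not called: TENM2 differed by -3.31 ± 2.29 points (adjusted p = 0.339), NTRK3 by 0.328 ± 2.75 (0.952) and DLGAP1 by -0.0466 ± 2.17 (0.994). ROBO2 differed by -5.45 ± 3.25 (0.263).

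By length, the 6 tested members of 50 to 200 kb all had lower mean coverage with the inhibitor, as did 977 of the 1121 tested genes of that length. The median was -12.1 points for these members, against -5.55 over the 1121 genes. The 21 tested members over 500 kb had a median of -2.07 points, against -3.51 over 193 genes. Of all the island length in a library, the 54 windows held 1.72% ± 0.027 without the inhibitor (lowest 1.68%, highest 1.75%, n = 8) and 1.82% ± 0.0355 with it (1.76% to 1.86%, n = 8). These ranges did not overlap, while covered length itself did. The windows of all genes over 500 kb held 12.3% ± 0.155 and 12.6% ± 0.131, ranges that overlapped. The share of the members' windows that was covered was 29.0% ± 3.53 and 27.8% ± 2.95.

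Each inhibitor group was also set against its own reference, and the comparisons with control share the same 4 control libraries. In EPZ against control 1 of 37 members was called (3.17% of all tested genes), STMN2, at -24.9 ± 5.85 points (limma adjusted p = 0.0364). In combo against control 1 was called (1.68% of all genes), again STMN2, at -27.3 ± 5.85 (0.0354). In combo against P38i 1 was called (1.92% of all genes), STMN2 at -24.7 ± 5.85 (0.044). With covered length as a covariate only the call in combo against control was kept (-25.8 points, limma adjusted p = 0.0133), while EPZ against control was at -20.9 (0.0650) and combo against P38i at -21.1 (0.0691). The same held with lists of equal length (0.0349, 0.17 and 0.164 in that order). Each of these calls was lost in a fit of the compared groups alone (adjusted p = 0.104, 0.0778 and 0.102). The first was also lost without any 1 of replicates 1 to 3 of control and EPZ, the next without any 1 of control 1 to 3 or any combo library, and the last without any 1 of 11 libraries (control 2 and 3, EPZ 2 and 3, P38i 1 to 3, any combo library), with adjusted p up to 0.155 in these fits. CNTN1 was at -14.4 ± 4.04 points in EPZ against control (adjusted p = 0.062), -13.9 ± 4.04 in combo against control (0.0892) and -9.84 ± 4.04 in combo against P38i (0.196). LRRTM3 was at -14.3 ± 4.41, -13.6 ± 4.41 and -12.2 ± 4.41 in the same order (0.0861, 0.119 and 0.149).

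The p38 inhibitor called no member. In P38i against control 0 of 37 passed (0.292% of all tested genes). At an unadjusted p under 0.05 there were 2, NRXN2 and STMN4, a second stathmin, against 416 of the 4104 tested genes. NRXN2 was covered 43.9%, 28.4%, 22.8% and 26.7% in control and 46.4%, 50.9%, 58.0% and 47.6% in P38i. The difference was 20.3 ± 5.18 points (limma adjusted p = 0.154). The NRXN2 window also holds RASGRP2 and SLC22A12. STMN4 was covered 53.8%, 27%, 29.6% and 42.0% in control and 53.7%, 81.5%, 81.5% and 59.1% in P38i, a difference of 30.9 ± 10.1 points (0.299). Without control replicate 1, NRXN2 was called in this comparison and in the main effect of the p38 inhibitor. That main effect (P38i and combo against control and EPZ) called 0 of 37 members (0.122% of all genes). In it 4 members had an unadjusted p under 0.05, against 544 of the 4104 tested genes.

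Adding the p38 inhibitor to the EZH2 inhibitor called no member either. In combo against EPZ 0 of 37 were called (0% of all tested genes). None of the members had an unadjusted p under 0.05, against 224 of the 4104 tested genes. The members' median was 2.62 points, against 3.02 over all genes. The interaction, which asks whether the EZH2 inhibitor acted differently beside the p38 inhibitor, called 0 of 37 (0.0487% of all genes). It also had 0 members at an unadjusted p under 0.05, against 141 of the 4104 tested genes. For STMN2 the interaction had an adjusted p of 1, with a difference of 0.217 ± 8.27 points.

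A second set of 92 neuronal genes of the same kinds, none of them members, was counted in the same way. Of these, 42 could be tested, and 5 fell (11.9%, against 15.6% of all tested genes) and 0 rose with the EZH2 inhibitor, with a median of -4.71 points, against -4.84 over all tested genes. With the covariate 2 fell and 3 rose. Among those that fell were the vesicle and active zone genes SYT10 (-25.2 ± 7.06, limma adjusted p = 0.0267), RIMS2 (-11.9 ± 3.37, 0.0277) and SLC17A6, a vesicular glutamate transporter (-15.4 ± 4.39, 0.0286), and the adhesion gene NRCAM (-10.2 ± 2.12, 0.0069). With the covariate, NRCAM kept its call (-7.54 ± 1.77, limma adjusted p = 0.0199), while SYT10 (-12 ± 3.55, 0.0524), RIMS2 (-7.82 ± 2.70, 0.0869) and SLC17A6 (-9.03 ± 3.63, 0.140) lost theirs. Of 6 genes for REST and its partners, 5 had no island in any library (83.3%, against 68.0% of all genes). Only 1 of the 6, RCOR2, could be tested, and it was not called.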

How the data were processed

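H3K27me3 libraries were compared as island lists. The deposited files give, per the labels, 1 list per library with the chromosome, start and end of each island and no other value (no count, score, signal or p-value). Per the submitters' processing notes reads were handled with Bowtie2 2.3.4.1, SAMtools 1.2, cutadapt, Trim Galore, FastQC, bedtools 2.28.0, Picard and the broad-domain caller SICER on build hg38. The order of use is not given in the sources used here, nor are SICER's version and parameters. Island bounds lay on windows of 200 bp and the smallest gap was 800 bp. Read depth is unknown, so a library that covers less may be one sequenced less, and no interval from counts can be given.

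From these lists, coverage of each RefSeq (GRCh38.p14) protein-coding gene and 2.5 kb on each side was computed on chromosomes 1 to 22 and X, 1069134 islands in all. It was checked against bedtools 2.31.1 on 500 genes in 2 libraries, with a largest difference of 0. Genes with a mean of 5 to 95% over 16 libraries (4104; 15515 lay below and 351 above) entered 1 fit by limma 3.58.1 in R 4.3.3, with its robust and trend settings. One estimate of a gene's spread thus serves all 4 groups. The 8 comparisons were adjusted by the Benjamini-Hochberg method one at a time, with a threshold of 0.05. The fit was tested on simulated data with known differences. Named genes are members past the threshold in any comparison, the 5 highest and the 5 lowest by control coverage among those with an island, and the largest main effect in each member list. NTM, OPCML, NRXN2, STMN4, SYN2 and other members given with values outside that rule were chosen after their values were seen. The members and lists were chosen with earlier results of these data known. Same-numbered libraries of different groups had correlations of residuals over genes from -0.151 to 0.178, and 2 of 24 were above 0.1. Other pairs had -0.204 to 0.164, with 6 of 72 above 0.1. A shift common to all genes of a library drops out of such a correlation, and the labels do not say what a replicate number marks. Whether the numbers pair the libraries is therefore not settled. Figures were drawn with matplotlib 3.10.9, and coverage was computed in Python 3.11.15 with pandas 2.3.3 and numpy 2.4.6.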

Additional observations from a re-analysis of the deposited data

Results flagged for a closer look

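In 71 groups of 4 libraries with any spread, over the 18 named members, 6 had a library whose gap to the nearest other, as a share of the group's range, exceeded Dixon's 95% critical value for 4 values; chance alone flags about 1 group in 20. DLGAP2 was covered 36.2% in control replicate 1, against 20.4% to 22.1% in the other 3. LINGO2 was covered 0.57% in combo replicate 2, against 1.47% to 1.51% in the other 3. The other 4 were low values beside groups at 0: CNTN6 at 1.52% in P38i replicate 4, and NEGR1 at 0.561% in EPZ replicate 4, 0.292% in P38i replicate 2 and 0.314% in combo replicate 1.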

How the results depend on the processing

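Of the members, 8 were called in the EZH2 inhibitor main effect. With island lists trimmed to equal length 5 of 33 tested were called (2 lower and 3 higher), against 4.68% of 3524 tested genes. In a 5 kb window at the gene start 0 were called, where 18 members were tested, STMN2 and LRRTM3 not among them. Without the narrowest library of each group 3 were called, an alternative chosen after seeing the data. Leaving out 1 library gave 4 to 11, with 11 (10 lower) without control replicate 4, and 4 without any 1 of control 2 and 3 and P38i 1 to 3. Those 4 were STMN2, CNTN1, LRRTM3 and MDGA2. With the replicate number as a block the main effect called 6. The block left 0 in each of EPZ against control, combo against control and combo against P38i, where 1 was called without it. The labels do not say what the numbers mark, so it is not settled whether a block belongs in the fit. EPZ against control called 3 with the covariate (MDGA2, NRSN1 and OPCML, higher), 0 with islands of 2 kb or more, at the gene start (where STMN2 was not tested) and with only the compared groups, and 0 to 4 leaving out 1 library (4 without control replicate 4, 2 without EPZ replicate 4). Without the narrowest libraries its 1 call was CNTN1 in place of STMN2. Combo against control called 8 with the covariate (4 lower and 4 higher), 3 with lists of equal length, 0 in those same 3 settings and without the narrowest libraries, and 0 to 3 leaving out 1 library (3 without control replicate 4). Combo against P38i called 2 with the covariate (MDGA2 and OPCML, higher), 0 with lists of equal length, arcsine values, no filter, a 5 kb flank and the settings just named, and 0 to 1 leaving out 1 library. P38i against control and the p38 inhibitor main effect called 0 to 1. Combo against EPZ and the interaction stayed at 0 under every alternative run. Members at least 50% covered in control numbered 13, 12 to 15 without 1 control library, and 26 at a limit of 25%. At the gene start, LSAMP differed by 12.0 points and MDGA2 by -2.60 (limma adjusted p = 0.471 and 0.909), opposite in sign to the whole gene; the causes of these changes were not tested. Depth is unknown and sets how many islands a library can show. Apart from lists of equal length, the counts in this paragraph stand without the share over all tested genes. They do not tell whether the members changed apart from genes in general.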

Other observations

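Of the 7 members with an island that lay below the limit for testing, a pair passed when no limit on coverage was set (limma, EZH2 inhibitor main effect). The share over all genes in that fit is not given here, so these calls do not set the members apart from genes in general. CNTN6 was at 0 in all 4 control libraries and in P38i replicates 1 to 3, at 1.52% in P38i replicate 4, at 1.83%, 2.47%, 1.52% and 2.02% in EPZ and at 0%, 1.27%, 1.52% and 2.53% in combo, a difference of 1.45 ± 0.351 points (adjusted p = 0.02). SYT1 was at 3.07%, 2.19%, 4.01% and 2.02% in control, 3.68%, 3.27%, 1.79% and 2.33% in P38i, 0.843%, 1.21%, 1.25% and 0.978% in EPZ and 1.92%, 0.573%, 0.708% and 0% in combo, a difference of -1.86 ± 0.41 points (adjusted p = 0.0134). Both differences are small shares of the windows of long genes, and in groups at 0 the shared spread may make the p-value of CNTN6 too low.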
